A study of Mus musculus with 394 samples.

Results

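The mRNAs bound to tagged ribosomes of dopamine neurons were compared with total RNA in the substantia nigra pars reticulata (SNr) of the mouse. The comparison rests on 3 RiboTag immunoprecipitates (IPs) and 3 Inputs, which are 6 of the 394 libraries of the series, and these were chosen by their labels as the SNr libraries of Cre+ mice made with the full-length total RNA protocol. All 6 came from mice aged 10 to 14 months that were heterozygous for DAT IRES-Cre (DAT IRES-Cre/wt) and for RiboTag (RiboTag+/-). DAT IRES-Cre makes Cre recombinase from the dopamine transporter locus. In cells with Cre, the RiboTag allele yields ribosomal protein eL22 with an HA tag (eL22-HA), and anti-HA beads then retain the ribosomes of those cells with the mRNAs they carry. Input is a part of the lysate set aside before the IP. Any cell that has used the transporter locus can carry the tag, and the SNr was cut from the slice below the substantia nigra pars compacta (SNc), so that it holds dopamine neuron dendrites and only scattered cell bodies. The paper concludes that its SNr IPs mainly reflect those scattered cell bodies and not the dendrites. For reference, 3 IPs and 3 Inputs each of the SNc and of the ventral tegmental area (VTA) had the same genotype, age and protocol. A further 20 SNr libraries were made with a 3′-end kit that counts unique molecular identifiers (UMIs), with 4 IPs and 4 Inputs from Cre+ mice and 6 IPs and 6 Inputs from Cre- mice, aged 10 to 14 months as well. Cre- mice hold no tagged ribosome and so give the background of the IP. The labels name no mouse, and they do not say which IP and Input share one or whether the full-length and UMI libraries do. The p-values therefore measure the spread between these libraries, part of which may be technical.

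Dopamine is made from tyrosine by tyrosine hydroxylase (*Th*) and aromatic amino acid decarboxylase (*Ddc*), is packed into vesicles by the vesicular monoamine transporter VMAT2 (*Slc18a2*) and is taken back up by the dopamine transporter DAT (*Slc6a3*). Dopamine neurons of the ventral SNc send long dendrites down into the SNr and release dopamine from them. Most cell bodies of the SNr itself belong to fast-firing GABAergic projection neurons, many of which contain parvalbumin, and they lie among astrocytes and heavily myelinated fibers.

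Read totals were 4030726, 5153095 and 4018290 in the IPs and 11478345, 13639463 and 4395752 in the Inputs. Mitochondrially encoded transcripts took 29.01% to 29.41% of the Input reads and 1.16% to 2.07% of the IP reads. IP library 3 stood apart from the other two: reads fell on 25619 genes in it, against 20209 and 19885, and 6515 of those genes were detected in no other SNr IP, against 2242 and 2213. Counts of called genes in the gene lists are therefore given below with it and, where they moved, without it. Levels are CPM, read counts scaled to a common library total, after TMM scaling. A gene was called at a Benjamini-Hochberg adjusted p below 0.05 in edgeR's quasi-likelihood test of the 3 IPs against the 3 Inputs. Fold changes are log2 values of IP over Input, given with an approximate standard error (SE). Each SE, here and in the later fits, was worked backwards from the fold change and its F statistic, not read from the fitted coefficient. The SE of a difference between regions or genotypes therefore need not follow from the SEs of its parts.

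Of 13790 genes tested, 2201 (16%) were higher in the SNr IPs and 2023 (14.7%) were lower, 4224 in all (30.6%). At least 4-fold differences were found for 394 genes (2.86%) on the higher side and 363 (2.63%) on the lower side, and the median log2 fold change over all genes was 0.02. In 6571 genes (47.7%) the 3 IPs and 3 Inputs did not overlap. The genes with the smallest p on the higher side were led by dopamine neuron genes and by *Bcar1* and other genes that are not markers of these neurons, described further on. On the lower side they included mitochondrial and glial transcripts beside others such as the kinesin gene *Kif5a*. Without IP library 3, 2870 genes were higher and 2779 lower. With library totals in place of TMM scaling the split was 3961 higher against 1199 lower and the median of all genes moved to 0.41, so that small differences change side with the scaling.

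**Figure D1:**
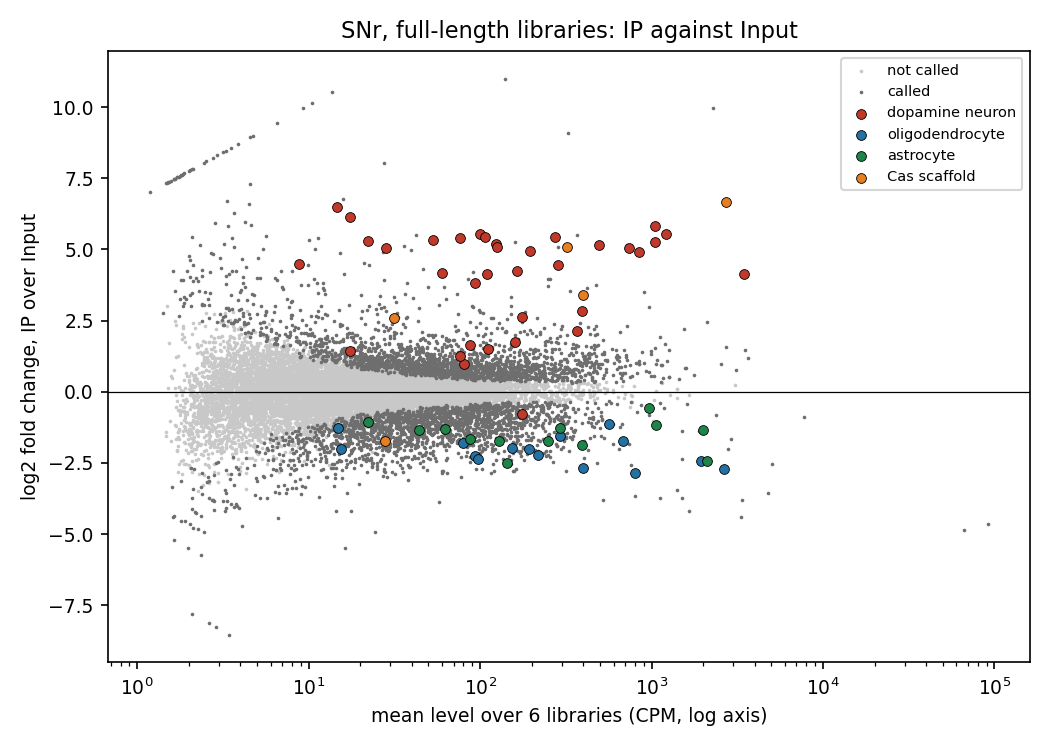
Log2 fold change of the 3 SNr IPs over the 3 SNr Inputs (vertical axis) against the mean level of each gene in CPM on a log axis, for the 13790 genes tested. Grey points are genes that were not called and dark grey points those that were; colored points are the called members of the dopamine neuron, oligodendrocyte, astrocyte and Cas scaffold lists. The dopamine neuron and Cas scaffold members sit mostly above a log2 fold change of 2, and the glial members below 0.

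Genes of dopamine synthesis, storage and reuptake were strongly enriched. Of 8 members, 6 were higher in the IPs and 1 was lower, with a median log2 fold change of 5.06 where that of all genes was 0.02. *Th*, at chr7:142892752-142931128 on GRCm38, read 49.6, 22.2 and 38.04 CPM in the Inputs and 2353, 2261 and 1579 CPM in the IPs. Every IP was thus far above every Input, by a log2 fold change of 5.82 ± 0.31 (SE; adjusted p = 1.34e-06) or 56.6-fold. *Slc6a3*, at chr13:73536747-73578672, read 78.4, 32.2 and 42.7 CPM in the Inputs against 2681, 2498 and 1940.1 CPM in the IPs, a log2 fold change of 5.53 ± 0.32 (adjusted p = 2.15e-06). *Ddc* went from 60.9, 28.5 and 39.9 CPM to 1620.1, 1527 and 1172 CPM (log2 fold change 5.06 ± 0.28). IP library 3 was the lowest of the IPs in each of these genes, and still far above the Inputs.

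The vesicular transporter gene *Slc18a2* read 33.9, 22.6 and 24.5 CPM in the Inputs and 1107, 1044 and 723 CPM in the IPs (log2 fold change 5.14 ± 0.23). *Gch1*, which makes the cofactor of tyrosine hydroxylase, was much scarcer, with 2.68, 0.256 and 2.35 CPM against 67.9, 62.3 and 34.3 CPM, but its log2 fold change of 5.06 ± 0.61 was as large. *Slc10a4*, a vesicular transporter-like protein of monoamine neurons, had a log2 fold change of 4.96 ± 0.29. Other steps of cofactor metabolism did not follow. *Qdpr*, which recycles the cofactor in many cell types, was lower in the IPs (-0.77 ± 0.17), and *Pts*, which acts between *Gch1* and the finished cofactor, was not called (0.28 ± 0.39). With library totals in place of TMM scaling *Qdpr* was not called either (-0.38). Among dopamine breakdown genes, the monoamine oxidase gene *Maoa* was higher (0.62 ± 0.19), while *Maob* (-0.48 ± 0.33) and *Aldh2* (0.28 ± 0.18) were not called. The call of *Maoa* was lost with no filter, without any one of the Inputs and without IP library 1 or 2. Without IP library 3, 1 gene of the breakdown list was called lower as well.

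**Figure D2:**
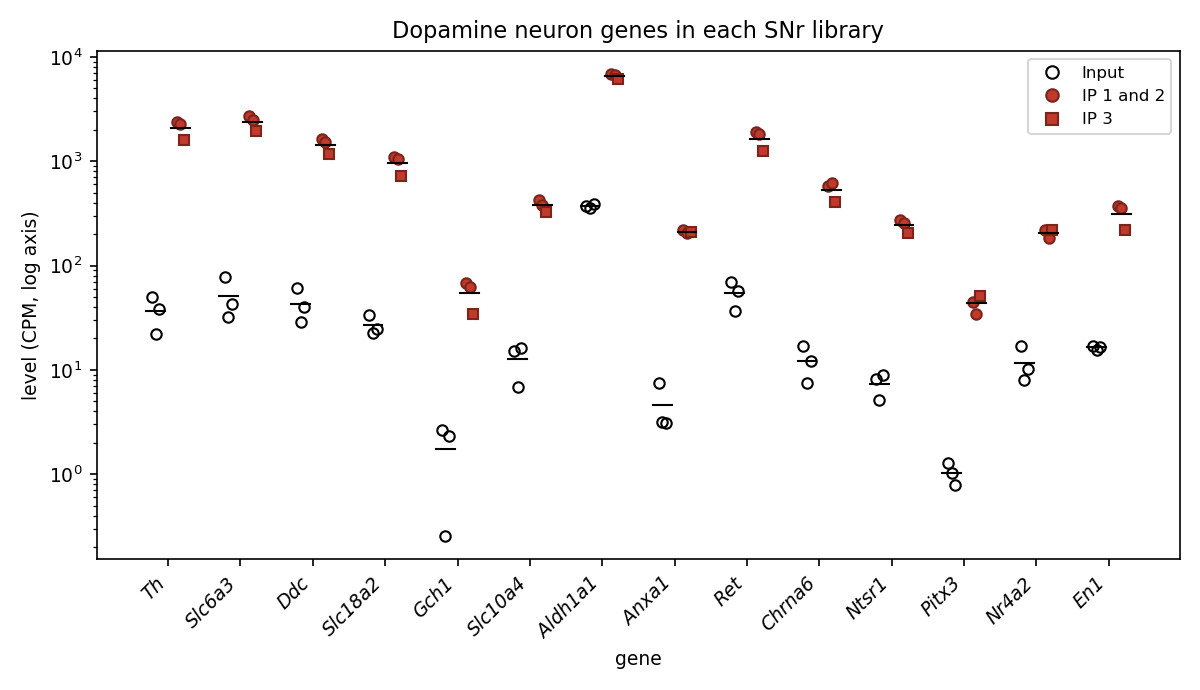
Level in CPM (log axis) of 14 dopamine neuron genes in each of the 3 SNr Inputs (open circles) and 3 SNr IPs (filled circles; the square is IP library 3), with a short bar at the mean of each group. In every gene shown the 3 IPs lie above the 3 Inputs.

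All 9 transcription factors of the dopamine lineage on the list were higher in the IPs, with a median log2 fold change of 4.25. They were scarce mRNAs. *Pitx3*, a homeodomain factor of midbrain dopamine neurons, read 1.29, 1.03 and 0.782 CPM in the Inputs and 44.7, 34.4 and 51.5 CPM in the IPs (log2 fold change 5.31 ± 0.35), and *Foxa2*, a forkhead factor that specifies these neurons, read 0.298, 0 and 1.04 CPM and 31.4, 40.3 and 14.7 CPM (6.48 ± 0.84). The groups did not overlap in either gene, although IP library 3 was the lowest of the IPs in *Foxa2*. *En1* went from 17.1, 15.6 and 16.7 CPM to 368, 354 and 218 CPM (4.25 ± 0.22). *Nr4a2*, encoding the nuclear receptor Nurr1 that drives *Th*, had a log2 fold change of 4.13 ± 0.26, and *Foxa1* (5.33 ± 0.32), *Lmx1a* (4.49 ± 0.53) and *Lmx1b* (4.16 ± 0.23) were in the same range. *En2*, which is also made in other midbrain cells, had a smaller difference (1.43 ± 0.38).

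Since these lists were enriched together, the 250 bases before the transcription start were searched in RefSeq's GRCm38.p6 annotation for short motifs of the factors, on both strands. Of the 34 genes called higher in the synthesis, transcription factor, receptor and ventral-tier lists, 26 had an entry, with 37 start sites. The Nurr1 motif AAAGGTCA stood before 2 of these 37 starts (5.41%), those of *Ddc* and *Sox6*, and before 1.34% of all 32851 starts. The forkhead motif TGTTTAC stood before 2 as well, those of *Dlk1* and *Foxa1*, against 3.17% of all starts. GGATTA, bound by *Pitx3*, was found before 1 (2.7% against 6.25%), and the homeodomain core TAATTA before none (4.84% of all starts). These counts are too small to set the genes apart from other promoters, and a match describes letters, not binding. The windows with matches before *Ddc* and *Dlk1* are shown with, for contrast, that of *Th* without one, each 5′ to 3′ on the strand of the gene and ending at the base before the start, with matches in capitals. The *Ddc* window (chr11:11898145-11898394, minus strand) holds the Nurr1 motif in reverse, as TGACCTTT, from 73 bases before the start. Another *Ddc* start (window chr11:11890409-11890658, minus strand) has none of these motifs and is not shown. The *Dlk1* window (chr12:109452573-109452822, plus strand) holds the forkhead motif from 87 and from 67 bases before the start. The *Th* window is chr7:142899996-142900245 on the minus strand, before RefSeq's start, while the GENCODE gene given above extends further upstream.
Ddc promoter: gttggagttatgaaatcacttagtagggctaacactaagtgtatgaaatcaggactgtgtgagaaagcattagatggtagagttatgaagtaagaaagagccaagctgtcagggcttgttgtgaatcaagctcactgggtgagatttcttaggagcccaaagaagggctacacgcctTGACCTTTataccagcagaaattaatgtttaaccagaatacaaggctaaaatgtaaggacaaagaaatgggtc
Dlk1 promoter: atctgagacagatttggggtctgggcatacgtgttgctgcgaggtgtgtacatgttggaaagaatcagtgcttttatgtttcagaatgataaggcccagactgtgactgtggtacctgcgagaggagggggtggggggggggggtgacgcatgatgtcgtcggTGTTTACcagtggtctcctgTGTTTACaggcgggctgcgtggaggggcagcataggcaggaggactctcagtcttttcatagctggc
Th promoter: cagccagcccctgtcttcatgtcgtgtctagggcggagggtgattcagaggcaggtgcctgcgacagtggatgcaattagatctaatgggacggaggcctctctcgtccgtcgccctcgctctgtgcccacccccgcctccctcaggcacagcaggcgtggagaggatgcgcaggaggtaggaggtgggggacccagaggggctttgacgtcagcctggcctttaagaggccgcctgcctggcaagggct

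Receptors of dopamine neurons were higher in the IPs without exception, 12 of 12 on the list, with a median log2 fold change of 5.01. *Ret*, the receptor subunit for GDNF, read 70.1, 36.3 and 57.1 CPM in the Inputs and 1884, 1804 and 1252 CPM in the IPs (4.92 ± 0.27), and its partner *Gfra1* had a smaller difference (2.63 ± 0.15). Among nicotinic subunits, those restricted to few neurons stood highest: *Chrna6* (17.1, 7.52 and 12.2 CPM against 576, 618 and 406 CPM; 5.45 ± 0.30), *Chrnb3* (5.21 ± 0.36) and *Chrna5* (6.12 ± 0.63). The widely used subunits *Chrna4* (2.83 ± 0.15) and *Chrnb2* (1.64 ± 0.19) were enriched less. The neurotensin receptor gene *Ntsr1* was 5.10 ± 0.23, the guanylyl cyclase C gene *Gucy2c* 5.39 ± 0.36 and the Delta-like gene *Dlk1* 5.27 ± 0.35. *Drd2*, the dopamine autoreceptor, had one of the smaller differences of the list, ahead of the netrin receptor gene *Dcc* (0.99 ± 0.18) and *Chrnb2*, with 69.5, 80.02 and 67.5 CPM against 289, 252 and 194 CPM (1.76 ± 0.17).

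Markers of the ventral tier of the SNc, the neurons whose dendrites enter the SNr, were nearly all enriched. Of 8 members, 7 were higher, with a median of 3.98, and without IP library 3 all 8 were called. *Aldh1a1*, the retinaldehyde dehydrogenase that marks ventral-tier neurons, lies at chr19:20492715-20643465 and had the smallest p of all genes. It read 371, 358 and 391 CPM in the Inputs and 6868, 6714 and 6076 CPM in the IPs, a log2 fold change of 4.13 ± 0.11 (adjusted p = 3.39e-08). Per kilobase of exon it was the most abundant dopamine neuron mRNA of the IPs, at 1327 CPM per kb against 873 for *Th* and 687 for *Slc6a3*. *Aldh1a7*, its neighbor and close copy, was 5.54 ± 0.20, and reads of the copies may be split between them. *Anxa1*, encoding annexin A1, read 7.46, 3.16 and 3.13 CPM and 217, 206 and 208 CPM (5.45 ± 0.30), *Ndnf* was 4.46 ± 0.34 and the potassium channel gene *Kcnj6* 3.82 ± 0.27. *Sox6*, a transcription factor of this tier, was higher by less (1.24 ± 0.17), and *Grin2c* was not called (0.58 ± 0.30). The paper assigns the ventral-tier signature of these IPs to dopamine neurons whose cell bodies lie within the SNr.

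Markers of VTA and dorsal-tier dopamine neurons gave another picture. Of 10 members, 7 passed the filter on low counts, 2 were higher and none lower, with a median of 0.33, and 1 was lower without IP library 3. Over all genes 16% were higher and 14.7% lower. *Cck* (6.96, 4.36 and 8.86 CPM against 59.98, 52.7 and 16.9 CPM; 2.72 ± 0.47) and *Calb2* (1.81 ± 0.24) were the higher members. *Calb1*, the calbindin gene, read 60.3, 74.8 and 72.2 CPM in the Inputs and 60.2, 79.1 and 44.2 CPM in the IPs (-0.17 ± 0.22), and it, *Slc17a6*, *Otx2*, *Lpl* and *Tacr3* were not called. *Vip*, *Neurod6* and *Adcyap1* did not pass the filter.

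A list of 13 genes that the study had named for the SNr was higher in the IPs in all 13 cases, with a median of 1.16, but that list was chosen on these samples and is no independent evidence of its direction. *Atp2a3*, a calcium pump of the endoplasmic reticulum, had the largest difference, from 8.65, 5.39 and 8.08 CPM to 112, 91.4 and 73.9 CPM (3.66 ± 0.26). The chromatin organizer gene *Satb1* read 51.2, 42.7 and 41.95 CPM and 327, 357 and 278 CPM (2.82 ± 0.15). *Prkca*, a protein kinase C, was 2.24 ± 0.12. The abundant vesicle gene *Rab3c* was 1.53 ± 0.12. By in situ hybridization the paper saw *Atp2a3*, *Homer2*, *Dgkz* and *Prkca* mRNA in dopamine neuron cell bodies of the SNr and found no evidence of it in dendrites. It did find *Th*, *Slc6a3*, *Ddc* and *Slc18a2* mRNA in SNr dendrites.

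Of 13 genes linked to inherited Parkinson disease, 8 were higher and none lower, with a median of 0.99. Over all genes 16% were higher and 14.7% lower. *Uchl1*, encoding a ubiquitin hydrolase of neurons, read 244, 241.2 and 258 CPM in the Inputs and 1278, 1083 and 821 CPM in the IPs (2.10 ± 0.16). *Dnajc6* (2.002 ± 0.11) and *Park7* (1.23 ± 0.16) were higher too. *Pink1*, *Lrrk2*, *Fbxo7* and *Vps13c* were not called, and without IP library 3 1 member of the list was called lower. *Lrrk2* read 68.7, 78.7 and 58.1 CPM in the Inputs and 41.2, 26.7 and 55.6 CPM in the IPs (-0.74 ± 0.26).

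Transcripts of the other cells of the SNr were on the opposite side. Input is a part of the lysate itself, so these differences describe what the IP retained relative to other RNA, not numbers of cells. Of 10 GABAergic neuron genes, none was higher and 8 were lower, with a median of -1.78, and without IP library 3 all 10 were lower. *Gad2*, encoding a GABA-synthesizing enzyme, fell from 390.4, 447 and 407 CPM to 86.1, 80.5 and 126 CPM (-2.09 ± 0.17), and *Pvalb* from 82.5, 114 and 121 CPM to 13.9, 14.2 and 17.8 CPM (-2.78 ± 0.21). *Gad1* was lower by less (-0.95 ± 0.20), with 270.2, 310.4 and 469 CPM in the IPs, where library 3 was the highest. *Slc32a1*, the vesicular GABA transporter gene, was -1.47 ± 0.18. Of 7 glutamatergic markers only 3 passed the filter and only *Slc17a7* was called, as lower (-1.89 ± 0.55), with 2 lower without IP library 3. Of 8 markers of serotonin, noradrenaline and acetylcholine neurons, *Chat* and *Slc5a7* passed it and neither was called, while *Tph2*, *Fev*, *Dbh* and *Slc6a2* did not.

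Glial transcripts were lower almost throughout. All 15 oligodendrocyte genes were lower in the IPs (median -2.01), as were 13 of 15 astrocyte genes (median -1.34), 6 of 8 oligodendrocyte precursor genes (median -1.79) and 9 of 13 microglial genes (median -1.82). None was higher. The counts were 14 astrocyte and 11 microglial genes without IP library 3. *Mbp*, encoding myelin basic protein, read 3416, 2937 and 3507 CPM in the Inputs and 502, 537 and 769 CPM in the IPs (-2.45 ± 0.17; adjusted p = 5.62e-06). In astrocytes, the glutamate transporter gene *Slc1a2* was -2.42 ± 0.18 and the water channel gene *Aqp4* -1.86 ± 0.26, with 573, 655 and 621 CPM in the Inputs and 107, 151 and 253 CPM in the IPs. *Gfap* was not called: it read 1109, 1138 and 1179 CPM against 723, 838 and 1228 CPM (-0.30 ± 0.17). For microglia, *Cx3cr1* was -2.34 ± 0.30 and *P2ry12* -2.34 ± 0.27. Depletion was partial. Summed over the 15 oligodendrocyte genes, the IPs held 2528, 2749.6 and 2982 CPM and the Inputs 14213.5, 12466 and 14213 CPM.

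The list of endothelial and mural genes had 13 members, of which 3 were higher in the IPs, where 16% of all genes were, and 0 lower (median 0.34). *Cldn5*, a tight junction gene of brain endothelium, read 17.5, 10.7 and 17.5 CPM in the Inputs and 33.9, 41.6 and 44.4 CPM in the IPs (1.40 ± 0.27), *Ly6c1* was 1.85 ± 0.43, and the smooth muscle actin gene *Acta2* was 3.005 ± 0.58. *Pecam1* was not called (-0.34 ± 0.48). In the UMI libraries 4 of 8 tested genes of this list were higher in the Cre- IPs and none in the Cre+ IPs. Hemoglobin genes were near the limit of the filter, with *Hbb-bs* at 13.1, 9.49 and 16.2 CPM in the Inputs and 4.43, 0.521 and 5.72 CPM in the IPs, and none of 4 red blood cell genes tested was called, while 2 were lower without IP library 3 and 2 without IP library 2. Of 8 ependymal and choroid plexus genes 5 passed the filter, and 2 of them, *Ttr* (-2.64 ± 0.88) and *Foxj1* (-2.22 ± 0.54), were lower, with 1 lower without IP library 3. *Folr1* did not pass it.

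**Figure D3:**
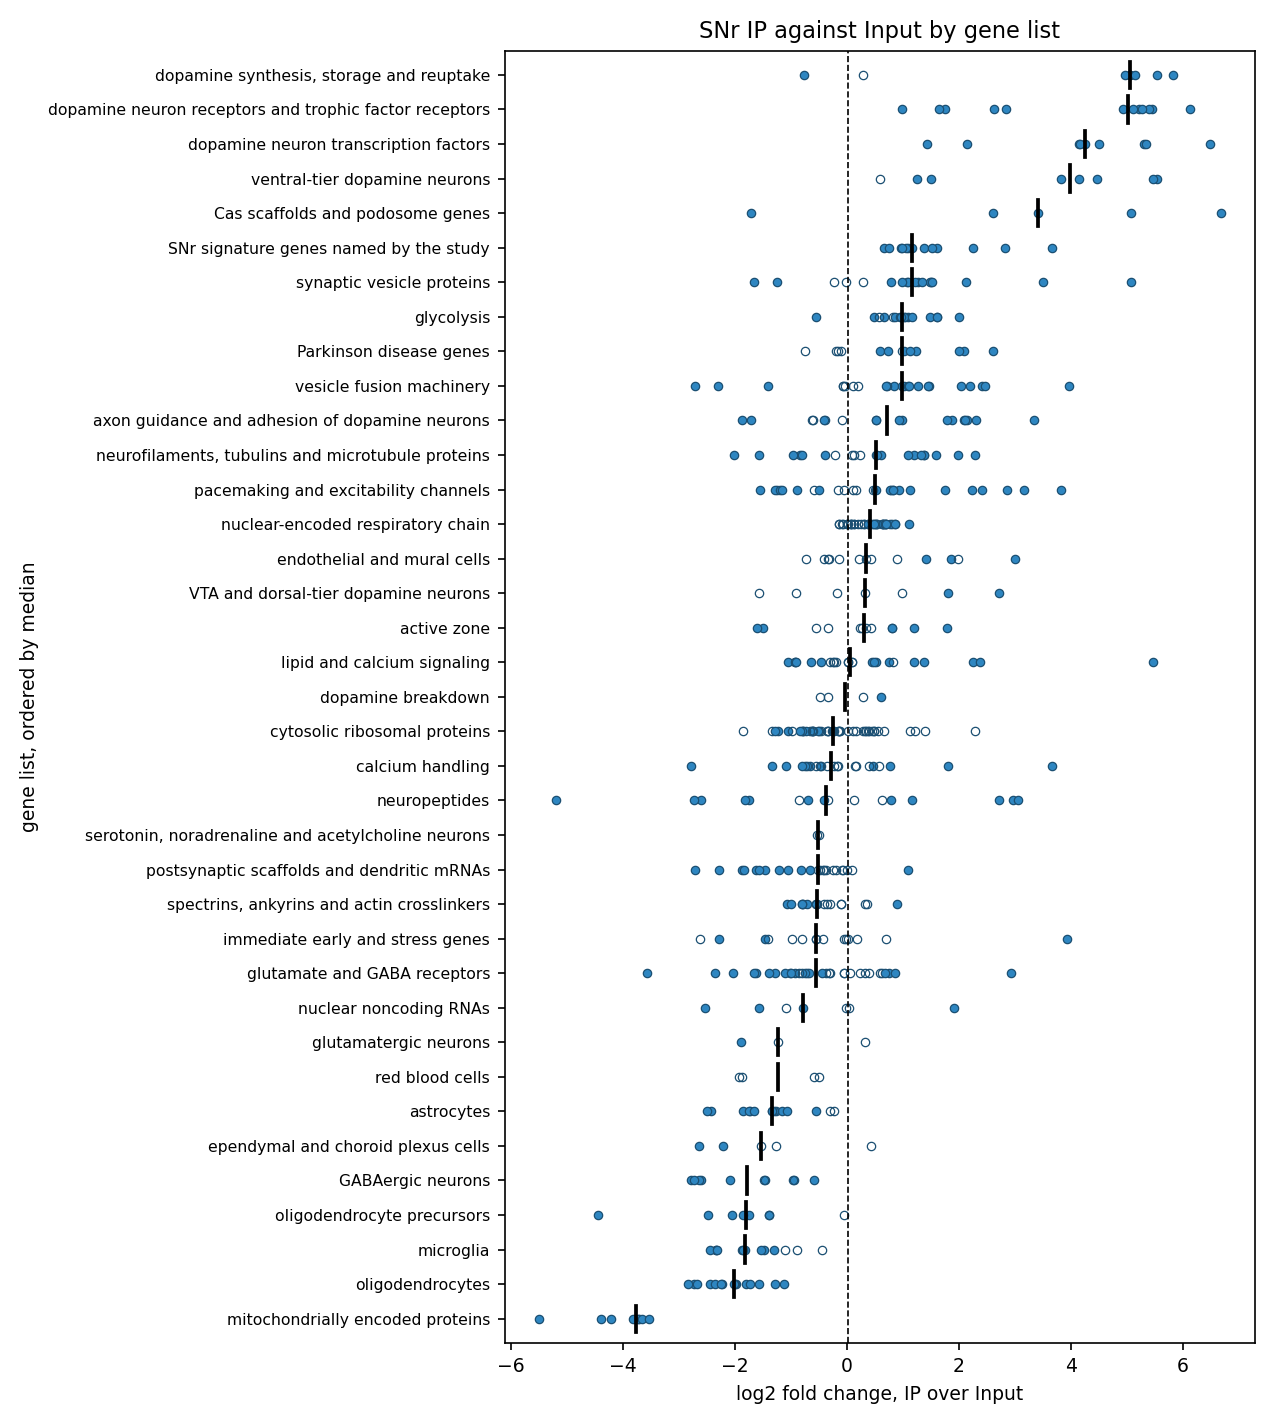
Log2 fold change of the SNr IPs over the Inputs for the tested members of each of the 37 gene lists, 1 point per gene, with a vertical tick at the median of each list and a dashed line at the median of all 13790 genes. Filled points were called and open points were not. The synthesis, transcription factor, receptor and ventral-tier lists of dopamine neurons lie to the right, with medians of 3.98 to 5.06, and glial and mitochondrially encoded lists to the left, with medians of -1.34 to -3.77.

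Transmitter release genes were mostly higher. Of 23 tested genes of vesicle fusion, 15 were higher and 3 lower (median 0.98), and of 18 synaptic vesicle protein genes 13 were higher and 2 lower (median 1.15). The higher counts were 16 and 14 without IP library 3. *Cplx1*, a complexin that clamps and triggers fusion, read 611, 641 and 698 CPM in the Inputs and 4211, 3790.1 and 2728 CPM in the IPs (2.46 ± 0.16; adjusted p = 3.99e-06). Per kilobase, among genes annotated as protein-coding, only the predicted gene *Gm10800* stood above *Cplx1* in the IPs, where *Cplx1* had 1634 CPM per kb. The calcium sensor gene *Syt1* was 2.20 ± 0.14, *Syt4* 2.04 ± 0.14 and the dense-core vesicle priming gene *Cadps2* 3.97 ± 0.32. *Sv2c*, the vesicle protein of dopamine neurons, rose from 164, 140.1 and 138 CPM to 1784, 1797 and 1414 CPM (3.50 ± 0.14), and *Sncg*, encoding γ-synuclein, from 19.6, 12.6 and 17.7 CPM to 629, 578 and 459 CPM (5.07 ± 0.21). The lower members were *Vamp1* (-1.40 ± 0.14), *Unc13c* (-2.31 ± 0.31), *Doc2b* (-2.70 ± 0.34), *Syn2* (-1.25 ± 0.18) and *Synpr* (-1.66 ± 0.34). Active zone genes were divided, with 4 of 12 higher and 2 lower (median 0.31), or 6 higher without IP library 3. Over all genes 16% were higher and 14.7% lower. *Erc2* was 1.78 ± 0.19, while *Pclo* was -1.60 ± 0.12 and *Rims2* -1.49 ± 0.18.

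Postsynaptic scaffold and dendritic mRNAs leaned the other way, with 1 of 23 higher and 11 lower (median -0.51), or 13 lower without IP library 3. *Homer2* was the member that was higher, at 39.9, 36.2 and 47.4 CPM against 87.9, 62.8 and 113 CPM (1.10 ± 0.23), while *Homer1* was lower (-1.47 ± 0.18). The PSD-95 gene *Dlg4* read 399, 446 and 386 CPM in the Inputs and 140.3, 155 and 237 CPM in the IPs (-1.21 ± 0.19), *Camk2a* was -1.83 ± 0.24 and *Shank3* -1.87 ± 0.19. *Map2*, whose mRNA is carried into dendrites, was not called, at 1326, 1458 and 1294 CPM and 1363, 1428 and 1573 CPM (0.10 ± 0.11). Of 32 tested glutamate and GABA receptor genes, 4 were higher and 14 lower (median -0.56), where 16% of all genes were higher and 14.7% lower. The higher count was 7 without IP library 3, and with library totals in place of TMM scaling 10 were higher and 9 lower (median -0.16). The glycine receptor subunit gene *Glra3* (2.94 ± 0.25) and both GABA-B subunit genes, *Gabbr1* (0.68 ± 0.11) and *Gabbr2* (0.85 ± 0.13), were higher, as was *Grin2d* (0.74 ± 0.24). The call of *Grin2d* was lost under several alternatives.

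Ion channel genes were split by member. Of 27 channel genes of pacemaking and excitability, 13 were higher and 7 lower (median 0.49), where 16% of all genes were higher and 14.7% lower. The T-type calcium channel gene *Cacna1g* read 25.9, 17.8 and 28.9 CPM in the Inputs and 185, 194 and 143 CPM in the IPs (2.87 ± 0.21). The A-type potassium channel gene *Kcnd3* was 1.75 ± 0.15, the SK3 gene *Kcnn3* 2.41 ± 0.15 and the sodium channel subunit gene *Scn3b* 2.24 ± 0.16. In contrast, the SK2 gene *Kcnn2* was lower (-1.28 ± 0.29), as were *Hcn2* (-1.25 ± 0.14), *Scn1a* (-1.19 ± 0.18) and *Scn8a* (-1.17 ± 0.15). The L-type channel gene *Cacna1d*, often studied in dopamine neuron pacemaking, was not called (0.49 ± 0.32). In the UMI libraries, with far fewer counts, 1 of 23 tested genes of the channel list was higher in the Cre+ IPs and none lower. None was called in the Cre- IPs or between genotypes.

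Among 22 calcium handling genes, 4 were higher and 7 lower (median -0.29), where 16% of all genes were higher and 14.7% lower. The lower count was 9 without IP library 3, and with library totals 6 were higher and 3 lower (median 0.1). The endoplasmic reticulum pumps differed: *Atp2a3* was higher, as given above, and the abundant *Atp2a2* was not called, at 705, 791 and 730.1 CPM in the Inputs and 693, 632 and 575 CPM in the IPs (-0.23 ± 0.11). *Atp2b1*, a plasma membrane pump, was lower (-1.34 ± 0.16) and the sodium-calcium exchanger gene *Slc8a1* higher (0.77 ± 0.12). Of 24 lipid and calcium signaling genes 9 were higher and 6 lower (median 0.05), or 7 lower without IP library 3. Besides *Prkca* and *Anxa1*, the phospholipase gene *Plcb4* (2.37 ± 0.17), the diacylglycerol kinase gene *Dgkz* (1.38 ± 0.14) and *Camk2d* (1.19 ± 0.15) were higher, while *Ppp3ca* (-0.91 ± 0.17) and *Dgkb* (-0.93 ± 0.16) were lower.

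Of 22 neuropeptide and secretory granule genes, 16 passed the filter. Of these 5 were higher and 7 lower (median -0.38), where 16% of all genes were higher and 14.7% lower. The lower count was 8 without IP library 3, and with library totals 6 were higher and 5 lower (median 0.017). Secretogranin II mRNA, *Scg2*, read 216, 192 and 249 CPM in the Inputs and 1976, 1748 and 1412 CPM in the IPs (2.97 ± 0.16), and the prohormone convertase gene *Pcsk1* was 3.06 ± 0.28. The lower members included the peptide genes *Penk* (-1.74 ± 0.18), *Pdyn* (-1.82 ± 0.40) and *Sst* (-2.60 ± 0.34), which GABAergic neurons use. *Nts*, at 3.18, 2.74 and 3.65 CPM in the Inputs, was at 0, 0 and 0.22 CPM in the IPs. Of 18 axon guidance and adhesion genes 11 were higher and 3 lower (median 0.72), or 5 lower without IP library 3, led by the netrin gene *Ntn1* (3.34 ± 0.20) and followed by *Cntn4* (2.31 ± 0.19), *Cdh8* (2.14 ± 0.15) and *Epha5* (2.09 ± 0.17).

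Cytoskeletal genes divided by family. Among 21 neurofilament, tubulin and microtubule genes, 11 were higher and 6 lower (median 0.52), or 12 and 7 without IP library 3. Over all genes 16% were higher and 14.7% lower. In the UMI libraries 8 of the 21 were higher and 3 lower in the Cre+ IPs, and 9 and 2 in the Cre- IPs. The ratio of IP to Input was higher in Cre+ than in Cre- mice for 4 and lower for 4. Most tubulin genes were higher, with *Tubb2a* at 134, 143 and 161 CPM in the Inputs and 771, 736 and 616 CPM in the IPs (2.28 ± 0.13) and *Tubb3* at 1.59 ± 0.13, and so was the stathmin gene *Stmn2* (1.98 ± 0.14). Neurofilament genes *Nefl* (-1.56 ± 0.23) and *Nefm* (-0.84 ± 0.20) and the kinesin gene *Kif5a* were lower. *Kif5a*, a motor for axonal transport, was among the genes with the smallest p, at 4456, 4625 and 4283 CPM against 1126, 1179.6 and 1019.5 CPM (-2.01 ± 0.11). Of 17 spectrin, ankyrin and actin crosslinker genes, 1 was higher and 7 lower (median -0.54), and without IP library 3 the lower count was 12. With library totals 4 were higher and none lower (median -0.14). *Ank3*, the ankyrin of the axon initial segment, showed that dependence: it read 194, 187 and 449 CPM in IPs 1, 2 and 3, against 582, 625.3 and 522 CPM in the Inputs (-1.06 ± 0.29).

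Energy metabolism genes differed by genome and by pathway. All 8 mitochondrially encoded protein genes tested were lower (median -3.77). The cytochrome b gene *mt-Cytb* read 6695, 6488 and 5952 CPM in the Inputs and 251, 302 and 364 CPM in the IPs (-4.38 ± 0.16), and the mitochondrial rRNA *mt-Rnr1* was lower too (-4.87 ± 0.19). Such RNAs sit on mitochondrial ribosomes, which carry no eL22. In the UMI libraries 10 of 13 mitochondrially encoded protein genes were lower in the Cre+ IPs (median -3.40). In the Cre- IPs, where no ribosome is tagged, 10 of 13 were lower as well (median -1.90). Of 39 nuclear genes of the respiratory chain, 16 were called, each as higher (median 0.42), with *Atp5a1* at 1.11 ± 0.11, and 19 were higher without IP library 3. In the UMI libraries, described further on, 1 of 40 of these genes was higher and 1 lower in the Cre+ IPs, and 11 were higher and 5 lower in the Cre- IPs. Glycolysis genes were higher in 13 of 16 cases (median 0.99). *Aldoa*, the muscle-type aldolase of neurons, read 669, 652 and 696 CPM and 2069.9, 1948 and 1593 CPM (1.48 ± 0.12), and *Gpi1* was 1.61 ± 0.15, while *Aldoc*, the aldolase of astrocytes, was the lower member (-0.55 ± 0.11). In the UMI libraries 8 of the 16 glycolysis genes were higher in the Cre+ IPs (median 0.81) and 13 in the Cre- IPs (median 1.11). The ratio of IP to Input was higher in Cre+ than in Cre- mice for none and lower for 1.

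Of 47 cytosolic ribosomal protein genes tested, none was higher and 8 were lower (median -0.25), where 16% of all genes were higher and 14.7% lower. Without IP library 3, 3 were higher and 11 lower, and with library totals 3 were higher and 2 lower (median 0.14). *Rplp1* had the smallest p of the list (-1.28 ± 0.12). *Rpl22*, the gene that the RiboTag allele modifies, read 70.8, 57.7 and 71.9 CPM in the Inputs and 27.002, 14.2 and 44.6 CPM in the IPs (-1.23 ± 0.34), a count that does not separate the tagged from the untagged allele. Only uniquely aligned reads were counted, so that a read shared by a gene and its copies counts for none. *Gapdh*, which has many processed pseudogenes, read 6.26, 4.10 and 3.39 CPM in the Inputs, and the part of such reads in that level was not tested. Of 7 nuclear noncoding RNAs tested, 3 were lower and 1, *Kcnq1ot1*, was higher (1.91 ± 0.38), and 4 were lower without IP library 3. *Malat1* fell from 9094, 8409.5 and 8345 CPM to 1154, 1473 and 1851 CPM (-2.53 ± 0.16). IP library 3 was the highest of the IPs in *Malat1*, and in the median gene of this list it read 1.96 times the mean of the other two IPs. Of 15 immediate early and stress genes 1 was higher and 2 lower, where 16% of all genes were higher and 14.7% lower. *Atf3*, at 0.0994, 0 and 0.782 CPM in the Inputs and 1.99, 3.12 and 5.06 CPM in the IPs (3.94 ± 1.26), was on the higher side. *Egr1* (-1.46 ± 0.19) and *Arc* (-2.29 ± 0.43) were on the lower. The call of *Atf3* was lost without any one of the 3 Inputs, without IP library 3, with no filter, without mitochondrial genes and nuclear RNAs, and in the fit of all 18 libraries. Without IP library 3 none was higher and 6 were lower.

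The other enriched group held genes that do not mark dopamine neurons. *Bcar1*, the adaptor p130Cas, had a p close to that of *Aldh1a1*: it lies at chr8:111710474-111743809 and read 46.03, 57.7 and 55.2 CPM in the Inputs and 4739, 4882 and 6559 CPM in the IPs (6.67 ± 0.19; adjusted p = 3.39e-08). Its relatives *Nedd9* (15.5, 19.6 and 21.1 CPM against 515, 505 and 855 CPM; 5.07 ± 0.25) and *Efs* (2.61 ± 0.24) and the podosome scaffold gene *Sh3pxd2a* (3.40 ± 0.22) were higher too, whereas *Sh3pxd2b* was lower (-1.71 ± 0.51), so that 4 of 5 tested members were higher (median 3.4). The call of *Sh3pxd2b* was lost with library totals and without Input 2, Input 3 or IP library 2. *Yeats2*, a histone reader gene, went from 14.1, 18.3 and 14.3 CPM to 573, 592 and 1007 CPM (5.52 ± 0.26), and *Acaca*, acetyl-CoA carboxylase, from 58.3, 64.6 and 60.97 CPM to 682, 602 and 1038 CPM (3.66 ± 0.21). IP library 3 was the highest IP in all 7 of these genes, and it was the lowest in *Th*, *Slc6a3*, *Ddc* and *Slc18a2*. Over the Cas list the median ratio of IP library 3 to the mean of the other IPs was 1.47, over the receptor list 0.739 and over all genes 0.982. The other genes with the smallest p on the higher side were *Cpne7*, a copine that binds membranes with calcium (5.28 ± 0.20), *Apba1*, the adaptor Mint1 (2.30 ± 0.11) and *Clstn2*, a calsyntenin (3.54 ± 0.17). On the lower side they were *Kcnj10*, the potassium channel gene of astrocytes and oligodendrocytes (-2.77 ± 0.12), *Gng7* (-2.79 ± 0.13), *Cdr1os* (-3.79 ± 0.17), *Tmem88b* (-2.70 ± 0.14), *Rab31* (-2.997 ± 0.16) and *Csrp1* (-2.09 ± 0.11).

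No full-length library of a Cre- mouse was used, so which of these genes need the tag was asked of the UMI libraries. Their IPs held 17831 to 60728 UMIs and their Inputs 26583 to 134286, far fewer counts than the full-length libraries, and the 20 libraries were fitted together over 10733 genes. In Cre+ mice 294 genes (2.74%) were higher in the IPs and 355 (3.31%) lower, 6.05% in all, in Cre- mice 396 (3.69%) and 218 (2.03%), 5.72% in all. The ratio of IP to Input was higher in Cre+ than in Cre- mice for 91 genes (0.848%) and lower for 139 (1.3%), 2.14% in all. The last 2 splits change with the scaling: with TMMwsp in place of size factors, 17.1% of the Cre- calls were higher in place of 64.5%, and 77.6% of the genotype calls in place of 39.6%. With library totals these shares were 39.4% and 71.4%, and the higher share of the Cre+ calls went from 45.3% to 56%. Large differences such as those of *Th* kept their direction under each of these scalings.

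*Th* was counted at 103, 153, 106 and 195 UMIs in the Cre+ IPs and at 6, 1, 4 and 2 in the Cre+ Inputs. The 6 Cre- IPs held 4, 1, 1, 6, 2 and 3, and the 6 Cre- Inputs 2, 6, 3, 1, 14 and 9. Its log2 fold change of IP over Input was 5.33 ± 0.33 in Cre+ mice and 0.91 ± 0.44 in Cre- mice, and the difference between genotypes was 4.41 ± 0.57 (adjusted p = 2.59e-11). *Slc6a3* (5.16 ± 0.67), *Ddc* (4.02 ± 0.57), *Dlk1* (4.88 ± 0.65), *Aldh1a1* (3.27 ± 0.40) and *Slc18a2* (2.96 ± 0.79) had a like difference between genotypes, each called, although that of *Slc18a2* was lost without Cre+ Input 4. Release and growth genes were among the strongest of this test: *Cplx1* was at 3.61 ± 0.39 (adjusted p = 7.09e-17) and the growth cone gene *Gap43* at 3.76 ± 0.46. *Syt1* (2.17 ± 0.35) and *Scg2* (2.76 ± 0.43) were called as well. For *Ret* (3.03 ± 1.05), *Chrna6* (4.64 ± 1.57) and *Ntsr1* (2.95 ± 3.05), which are scarcer, the difference between genotypes was not called at this depth.

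*Bcar1* behaved differently in the same libraries. It read 1592, 1536, 3053 and 2886 CPM in the Cre+ IPs and 17212, 4448, 10403, 7612, 1708 and 2391 CPM in the Cre- IPs, against 55.8 ± 19.1 CPM (SD, n = 4) in the Cre+ Inputs and 36.8 ± 21.3 CPM (SD, n = 6) in the Cre- Inputs. Its log2 fold change was 5.23 ± 0.38 with Cre and 7.74 ± 0.30 without, a difference of -2.51 ± 0.63 (adjusted p = 0.0062) that was not called with TMMwsp scaling, with a minimum of 50 UMIs, in DESeq2, or without Cre+ Input 3 or 4. *Nedd9* (4.61 with Cre and 5.38 without), *Acaca* (4.99 and 5.64), *Sh3pxd2a* (4.45 and 4.74) and *Efs* (4.58 and 2.93) were called in both genotypes, and their difference between genotypes was not. For *Efs* the call with Cre was lost without IP 4 or without any of Inputs 1, 3 and 4. *Gch1*, a dopamine neuron gene by name, was called in the Cre- mice (3.18 ± 1.04) and not in the Cre+ mice (1.92 ± 1.004), but the call was lost under both other scalings, with no filter, in DESeq2 and without the sixth Cre- IP. Among the most abundant features of the IPs were predicted genes of repeated sequence, among them *Gm10800*, which read 4.37, 6.41 and 0.782 CPM in the full-length Inputs and 2013, 2859 and 8725 CPM in the IPs and was higher in the Cre- UMI IPs as well (6.26 ± 0.27).

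**Figure D4:**
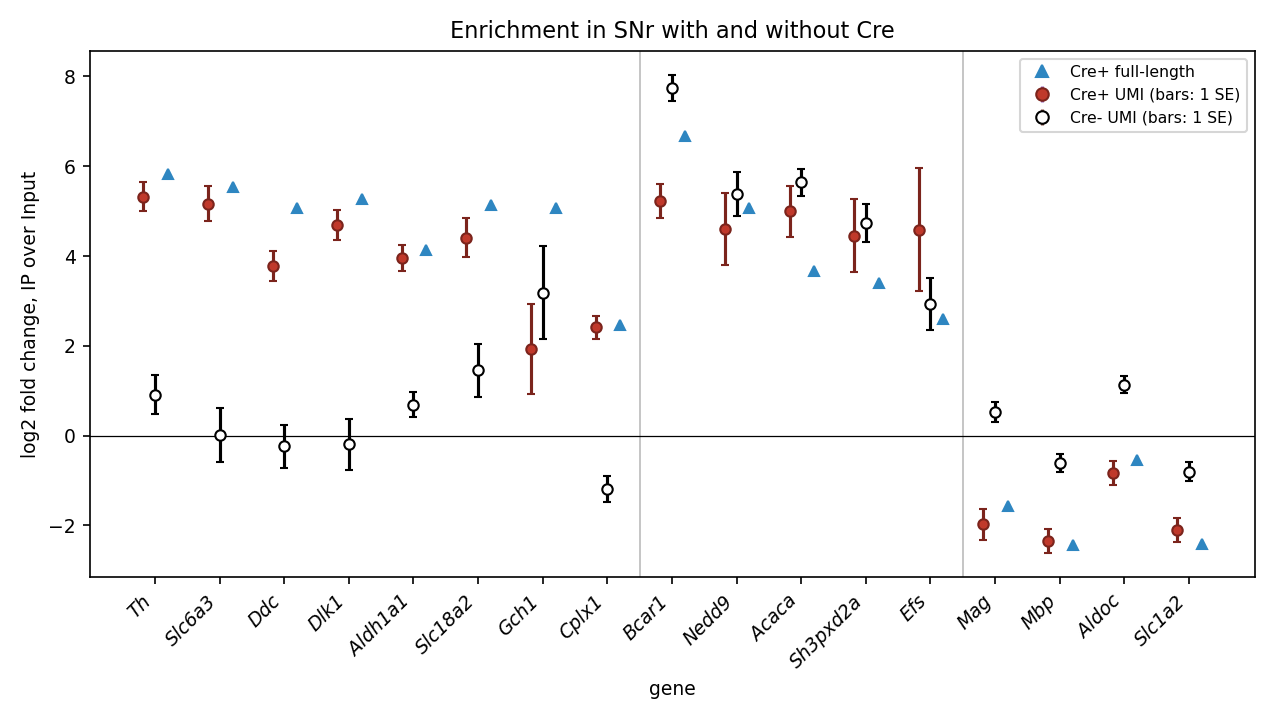
Log2 fold change of IP over Input in the UMI libraries of Cre+ mice (filled circles) and Cre- mice (open circles). Shown are 8 dopamine neuron and release genes, 5 genes of the *Bcar1* group and 4 glial genes. Bars extend 1 approximate SE, worked backwards from the test, on each side. Triangles give the full-length SNr value. The first group is high with Cre, apart from *Gch1*, and runs from -1.20 (*Cplx1*) to 1.45 (*Slc18a2*) without, where *Gch1* is at 3.18. The *Bcar1* group is high in both, and glial genes are lower with Cre than without.

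Over the whole table, the 2 kinds of library were compared gene by gene. Of all 9744 genes tested in both, 2.86% were higher and 3.36% lower in the Cre+ UMI IPs, and 3.72% were higher in the Cre- IPs. The ratio of IP to Input was higher in Cre+ than in Cre- mice for 0.913% of them. Of the 2201 genes higher in the full-length IPs, 1813 were tested in the UMI libraries: 261 of them (14.4%) were higher in the Cre+ UMI IPs, 88.8% of all genes called so there, and none was lower. Of the 394 genes at least 4-fold higher, 167 were tested, 97 (58.1%) were higher in the Cre+ IPs, 24 (14.4%) were higher in the Cre- IPs, and 29 (17.4%) were higher in Cre+ than in Cre- mice. Of the 2023 genes lower in the full-length IPs, 1782 were tested, 246 (13.8%) were lower and 2 were higher in the Cre+ UMI IPs. Of the genes higher in full-length IPs, 175 (9.65%) were also higher in the Cre- IPs. Of the 16 glycolysis genes 8 were higher in the Cre+ UMI IPs and 13 in the Cre- UMI IPs.

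Glial genes differed between genotypes the other way. In the Cre- UMI libraries 5 of 15 oligodendrocyte genes were lower in the IPs and 1 was higher, against 11 lower in the Cre+ libraries, and for 8 of 15 the ratio of IP to Input was lower in Cre+ than in Cre- mice. *Mag*, a myelin adhesion gene, showed this at -2.49 ± 0.41. Among astrocyte genes 8 of 15 differed in the same direction, with *Aldoc* at -1.97 ± 0.32 and *Slc1a2* at -1.30 ± 0.35, the latter lost under both other scalings. *Malat1* (-2.07 ± 0.33) and the carbonic anhydrase gene *Car2* (-2.25 ± 0.37) were also lower with Cre. None of these named genes changed direction under the other scalings.

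Enrichment in the SNr was then set against that in the regions that hold the cell bodies, in 1 fit of all 18 full-length libraries over 17235 genes. The ratio of IP to Input was higher in the SNr than in the SNc for 570 genes (3.31%) and lower for 684 (3.97%), 7.28% in all, and against the VTA it was higher for 746 (4.33%) and lower for 285 (1.65%), 5.98% in all. With DESeq2 size factors, 56.7% of the calls against the SNc were higher in place of 45.5%, and with library totals 64.8%. Of the 8 synthesis genes, 5 had a higher ratio in the SNr than in the SNc and 6 than in the VTA, while 1, *Qdpr*, had a lower ratio than in the SNc. Of 12 receptor genes 10 and 7 had a higher ratio and none a lower one.

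Most of that difference lay in the Inputs for *Th* and *Slc6a3*. *Th* read 2014 ± 432 CPM in the SNr IPs (SD, n = 3), 1639.9 ± 644 in the SNc IPs and 3230.1 ± 201 in the VTA IPs, but 36.5 ± 13.9 CPM in the SNr Inputs against 126 ± 14.9 and 237 ± 5.59. Its enrichment was higher in the SNr by 2.09 ± 0.32 (adjusted p = 0.000267) against the SNc and by 2.02 ± 0.32 (adjusted p = 0.000306) against the VTA. *Slc6a3* had 2315 ± 400.4, 2705 ± 220.3 and 2416 ± 185 CPM in the SNr, SNc and VTA IPs and 51.05 ± 24.4, 192 ± 9.17 and 239.7 ± 11.1 CPM in the Inputs, in the same order. Its difference was 1.68 ± 0.27 against the SNc and 2.16 ± 0.27 against the VTA. *Ret* followed with 2.12 ± 0.26 and 2.11 ± 0.26. The SNr had the lowest Input level of the 3 regions in each of these genes and the highest IP level in none.

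For *Aldh1a1* the IP level was highest in the SNr. The Inputs read 372 ± 16.9 CPM in the SNr, 369 ± 18.5 in the SNc and 497 ± 45.6 in the VTA, while the IPs read 6388 ± 479.9, 3114 ± 709.7 and 4106 ± 163 CPM. The enrichment was higher in the SNr by 1.03 ± 0.17 and 1.06 ± 0.17. *Atp2a3* read 90.2 ± 19.5 CPM in the SNr IPs and 29.7 ± 17.8 and 30.97 ± 10.3 CPM in the SNc and VTA IPs, with Inputs of 7.35 ± 1.76, 10.9 ± 0.32 and 6.03 ± 1.21 CPM, and its difference was called against the SNc (2.17 ± 0.46) and not against the VTA (1.34 ± 0.47). *Satb1* was higher in the SNr against both (2.13 ± 0.31 and 1.26 ± 0.31). These last genes belong to the list chosen on these samples.

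**Figure D5:**
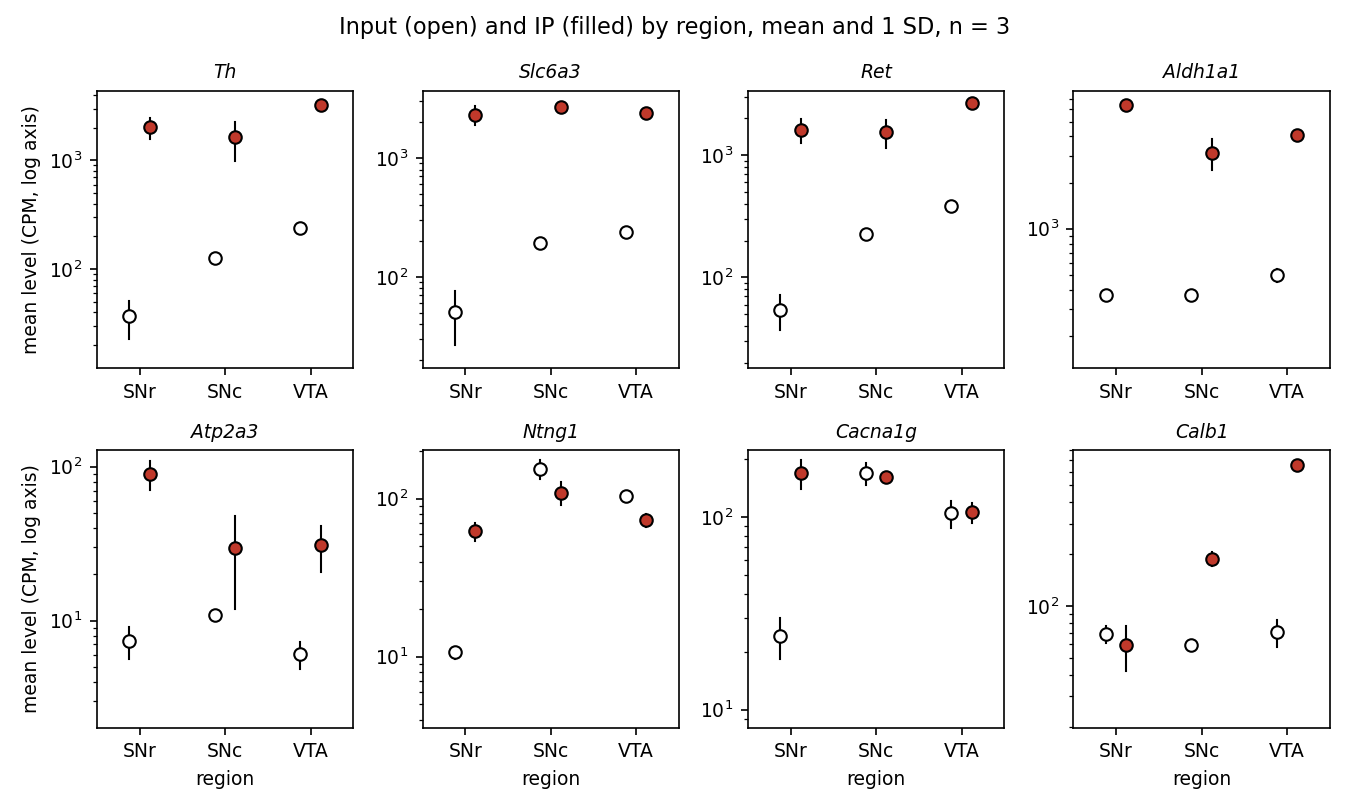
Mean level in CPM (log axis) of 8 genes in the Inputs (open symbols) and IPs (filled symbols) of SNr, SNc and VTA, with error bars of 1 SD over 3 libraries. *Th*, *Slc6a3* and *Ret* have their lowest Input level in the SNr, *Aldh1a1* and *Atp2a3* have the highest IP level in the SNr, *Ntng1* and *Cacna1g* have a low SNr Input, and *Calb1* is high in the VTA IPs.

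The genes with the smallest p in the comparison with the SNc were led by *Ntng1*, encoding netrin-G1 (3.05 ± 0.22), and *Cacna1g* (2.91 ± 0.24), and both were among the leading genes against the VTA too (3.04 ± 0.22 and 2.81 ± 0.24). *Ntng1* read 10.6 ± 0.951 CPM in the SNr Inputs and 61.95 ± 8.21 in the SNr IPs, against 154 ± 21.6 and 109 ± 17.8 CPM in the SNc. Here too the Inputs differed more than the IPs. *Glra3* (2.61 ± 0.26), *Cpne7* (2.72 ± 0.29) and *Gabbr2* (1.44 ± 0.16) followed, as did *Acaca* (2.96 ± 0.28), which was higher in the Cre- UMI IPs as well. Against the VTA, *Nrn1* (3.22 ± 0.27) and *Sncg* (2.35 ± 0.26) were higher in the SNr. On the lower side, *Calb1* was less enriched in the SNr than in the SNc (-1.86 ± 0.23) and than in the VTA (-3.42 ± 0.23; adjusted p = 2.97e-09), with IP levels of 59.7 ± 17.4, 188 ± 17.3 and 658 ± 38.6 CPM in SNr, SNc and VTA at Inputs of 68.9 ± 7.39, 59.2 ± 3.25 and 70.5 ± 12.7 CPM. *Kif5a* was lower against both (-1.25 ± 0.13 and -1.23 ± 0.13). Against the SNc the lower genes also included *Tmsb4x* (-1.67 ± 0.19), *Nnat* (-1.65 ± 0.22), *Cst3* (-1.19 ± 0.17) and *Spock3* (-1.39 ± 0.19), and against the VTA *Fstl5* (-2.56 ± 0.27), *Neto2* (-1.94 ± 0.21) and *Cadm1* (-1.66 ± 0.20).

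Glial RNA was depleted less in SNr IPs than in VTA IPs. Of 15 astrocyte genes 14, and of 15 oligodendrocyte genes 13, had a higher ratio of IP to Input in the SNr than in the VTA, with medians of 1.91 and 1.42 where the median of all genes was 0.12. Of all genes 4.33% had a higher ratio. *Gja1* (2.11 ± 0.21) and *Gfap* (2.90 ± 0.33) were among the genes with the smallest p. *Gfap* read 904 ± 246 CPM in the SNr IPs, 77.5 ± 10.99 in the SNc IPs and 21.1 ± 11.6 in the VTA IPs. Part of the gap between SNr and VTA IPs lies in the Inputs, and the difference in ratio is the 2.90 given above. Against the SNc, 11 of 15 oligodendrocyte genes had a lower ratio in the SNr, as had 3.97% of all genes. Ribosomal protein genes (17 of 50, median -0.79) and nuclear respiratory chain genes (16 of 39, median -0.64) were also less enriched in the SNr than in the SNc, and none was more enriched, while against the VTA 1 ribosomal protein gene and no respiratory chain gene was lower. The median of all genes against the SNc was -0.03. List counts between regions were not repeated under other scalings, which changed the split of all calls against the SNc. SNc IPs 2 and 3 had reads on 25184 and 22453 genes, against 18394 in SNc IP 1 and 17150 to 18487 in the VTA IPs. Leaving out each library in turn moved the 1254 calls against the SNc to between 713 and 2019.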

How the data were processed

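The raw read counts and UMI counts per gene were deposited by the authors, who aligned reads to GRCm38.p6 with STAR 2.6.7a and, for full-length libraries, removed rRNA reads with Bowtie2 and counted unique reads with featureCounts 1.6 on GENCODE M25 (M10 for UMI libraries). The strand setting is not given in the sources used here. Full-length reads are not molecules, since the first 15 bases of read 2 were trimmed.

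Counts were fitted with edgeR 4.0.16 (R 4.3.3; quasi-likelihood test, filterByExpr and TMM for full-length data, at least 10 UMIs over the 20 libraries and DESeq2 1.42.0 size factors for UMI data). Full-length SNr totals were 4018290 to 13639463 reads. Coordinates and exon lengths came from GENCODE M21. Genes are named where they were among the 12 smallest p-values of called genes on either side (6 in the other comparisons), given at least the median level, or belonged to 1 of 37 lists; some of these are not reported here. The members and lists were chosen with earlier results of these data known. Scripts were tested on simulated data. Alternatives were other scalings, filters, DESeq2, fewer regions and leaving out libraries.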

Additional observations from a re-analysis of the deposited data

Results flagged for a closer look

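The log2 ratio of IP to Input differed between regions or genotypes, by a test of the difference itself, in the following named genes. SNr minus SNc differences were called for *Acaca* (2.96), *Aldh1a1* (1.03), *Atp2a3* (2.17), *Cacna1g* (2.91), *Calb1* (-1.86), *Cpne7* (2.72), *Cst3* (-1.19), *Gabbr2* (1.44), *Glra3* (2.61), *Kif5a* (-1.25), *Nnat* (-1.65), *Ntng1* (3.05), *Ret* (2.12), *Satb1* (2.13), *Slc6a3* (1.68), *Spock3* (-1.39), *Th* (2.09) and *Tmsb4x* (-1.67). SNr minus VTA differences were called for *Aldh1a1* (1.06), *Cacna1g* (2.81), *Cadm1* (-1.66), *Calb1* (-3.42), *Fstl5* (-2.56), *Gfap* (2.90), *Gja1* (2.11), *Kif5a* (-1.23), *Neto2* (-1.94), *Nrn1* (3.22), *Ntng1* (3.04), *Ret* (2.11), *Satb1* (1.26), *Slc6a3* (2.16), *Sncg* (2.35) and *Th* (2.02). Cre+ minus Cre- differences in the UMI libraries were called for *Aldh1a1* (3.27), *Aldoc* (-1.97), *Bcar1* (-2.51), *Car2* (-2.25), *Cplx1* (3.61), *Ddc* (4.02), *Dlk1* (4.88), *Gap43* (3.76), *Mag* (-2.49), *Malat1* (-2.07), *Scg2* (2.76), *Slc18a2* (2.96), *Slc1a2* (-1.30), *Slc6a3* (5.16), *Syt1* (2.17) and *Th* (4.41).

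Single libraries lay apart from the rest of their group in 2 of 16 groups of values examined. Chance alone flags about 1 in 20 groups of continuous values, but that rate does not hold for small counts with ties. Both flagged groups are such raw counts, not scaled to depth, so no conclusion is drawn from their number. *Slc6a3* was counted at 18 UMIs in 1 of the 6 Cre- Inputs, above the others, in the library that also had the highest total of that group (134286 UMIs). It was counted at 1 UMI in 1 of the 4 Cre+ Inputs, which had the lowest total (26583 UMIs, against 53908 to 73535), where the other three held 2 UMIs each.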

How the results depend on the processing

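No paired analysis was possible because the labels carry no number that pairs IPs with Inputs or libraries with mice. The 4224 SNr calls ranged from 2636 to 5649 when 1 library was left out, lowest without Input 1 and highest without IP library 3. The 1254 calls against the SNc ranged from 713 (without SNc Input 1) to 2019 (without SNc IP 1) and were 639 in a fit of the 12 SNr and SNc libraries alone. The 1031 calls against the VTA ranged from 674 (without SNr Input 2) to 1431, and DESeq2 gave 1558. Leave-out ranges in the UMI libraries were 449 to 576 (Cre+), 563 to 610 (Cre-) and 158 to 252 (between genotypes). The cause of these shifts was not tested. Counting each named gene under each alternative, no called value changed direction: 2857 values kept their direction and side of the threshold, 71 lost the call, 19 gained one and 7 of genes without a call moved. In the SNr comparison *Atf3*, *Maoa*, *Grin2d* and *Ttr* lost theirs under 6 or more alternatives. The 3 libraries per group and the low UMI totals limit what could be called among scarce genes.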
